A study of Mus musculus with 267 samples.

Results

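Ccr1, Ccr2 and Ccr3 form a cluster of chemokine receptor genes on mouse chromosome 9, and Ccrl2, a gene for a related receptor-like protein, lies on the same chromosome 12.91 Mb away from Ccr1. In mm10 with GENCODE vM21 gene models, Ccr1 occupies chr9:123962124-123968692 on the minus strand, Ccr3 chr9:124021972-124031689 on the plus strand, Ccr2 chr9:124101950-124113557 on the plus strand and Ccrl2 chr9:111054486-111057519 on the minus strand. The start of Ccr1 is 53.3 kb from the start of Ccr3, which is 80.0 kb from the start of Ccr2. Every region or peak with its centre within 50 kb of the start of one of these 4 genes was taken and was assigned to the nearest of them, which gave 287 of 423610 regions in 9 tag tables and 2004 of 1958714 peaks in 54 peak lists.

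Chemokine receptors are G protein-coupled receptors that guide leukocytes along gradients of secreted chemokines. CCR1 responds to ligands such as CCL3 and CCL5, CCR2 responds to CCL2 and CCL7 and is needed for monocytes to leave the bone marrow, and CCR3 is best known on eosinophils as the receptor for eotaxins. CCRL2 binds chemerin without classical G protein signalling and presents it to neighbouring cells. Interleukin-4 (IL-4) activates STAT6 in macrophages and sets off a programme of alternative activation in which EGR2 and PPARγ take part, on enhancers that the lineage factors PU.1 and C/EBPβ already occupy. Acetylated H3K27 marks active promoters and enhancers, H3K4me2 marks both whether active or not, H3K4me3 marks promoters, and RNA polymerase II (Pol II) marks transcription.

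Bone marrow-derived macrophages (BMDMs) were grown for 7 days with M-CSF from young adult female mice of 5 strains, the inbred C57BL/6J (C57), BALB/cJ (BALB) and NOD/ShiLtJ (NOD) and the wild-derived PWK/PhJ (PWK) and SPRET/EiJ (SPRET), and were left untreated (basal) or given IL-4 at 20 ng/mL. All 5 strains were profiled at basal and after 24 h, and C57 also after 1 h and 6 h. A further pair of genotypes was compared at basal and after 24 h, Egr2 fl/fl mice with intact Egr2 and LyzM-Cre Egr2 fl/fl mice, in which Cre under the myeloid LyzM promoter deletes Egr2 in myeloid cells. EGR2 itself was not measured in these genotypes in the tables used here, so the deletion was not checked. Of 267 samples, 255 entered the tables and lists used here, and the libraries in the tag tables held 4691644 to 29050468 tags. Values are normalized tags, that is tags scaled by the authors to 1e+07 per library, in a window of 1000 bp around the centre of an open chromatin region for histone marks and Pol II. Replicates were biological replicates according to the study, without a record of how cultures map to animals, so p-values measure the spread between these libraries. In bulk chromatin a lower value cannot tell fewer cells with a mark from less of the mark per cell. Promoters of the macrophage genes Csf1r, Adgre1, Cd68, Spi1 and Mertk all held a region, with basal mean H3K27ac from 190.2 to 1080 normalized tags, whereas none of 3 T cell genes held one. The eosinophil gene Siglecf had 31.9 and the neutrophil gene S100a8 37.4, each the 1 gene of 3 with a region in its list.

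Positions are given from the start of the gene in kb, with plus signs downstream in the direction of the gene. The strongest H3K27ac of each gene in C57 lay away from its start, at Ccr1 +40.4 kb (chr9:123927785-123928785), Ccr3 +34.6 kb (chr9:124056081-124057081), Ccr2 -33.4 kb (chr9:124068040-124069040) and Ccrl2 -1.8 kb (chr9:111058836-111059836), all annotated as intergenic in the deposited table. The starts of Ccr1, Ccr3 and Ccrl2 each held a region annotated as promoter, and no C57 region lay within 1 kb of the start of Ccr2, whose nearest one was in its first intron at +1.4 kb (chr9:124102896-124103896). Ccr1 also had a block of overlapping windows between +42.4 and +45.5 kb, which share bases and are not independent, as do +39.7 with +40.4 kb and +26.5 with +27.1 kb of Ccr1 and +31.8 with +32.6 kb of Ccr3.

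Short stretches under the factor peaks that the results below turn on are shown with the motif matches in capitals. The sequence is the reference of mm10, read on the strand that holds the motif, and both strands of 300 bases around the C57 24 h peak centre were searched for AGGAAGTG (PU.1), TTGCNNAA (C/EBP), GNGTGGGNG (EGR), the STAT6 palindrome of TTC and GAA, and the direct repeat bound by PPAR.
Ccr1 start, EGR motif, chr9:123968697-123968726, plus strand: caattgatgtGTGTGGGCGtgtaaatgtag
Ccr1 +31.9 kb, C/EBP motif, chr9:123936836-123936865, plus strand: ctcataattgaTTGCTTAAgtggctcaaat
Ccr1 +31.9 kb, EGR motif, chr9:123936908-123936937, minus strand: atgactcctctGGGTGGGTGtaggtgtgct
Ccr1 +27.1 kb, PU.1 motif, chr9:123941428-123941457, plus strand: ccctgagagggAGGAAGTGgaggatacaaa
Ccr1 +40.4 kb, PU.1 motif, chr9:123928188-123928217, minus strand: ctcgtgagatgAGGAAGTGaggtctctgcg
Ccr3 +15.9 kb, C/EBP motif, chr9:124037929-124037958, plus strand: gtctgctgtggTTGCAGAAgagacttggca
The EGR motif at the Ccr1 start lay 8 bp from the centre of the EGR2 peak. At Ccr1 +31.9 kb the C/EBP motif lay 14 bp and the EGR motif 85 bp from the centre of the C/EBPβ peak. The PU.1 motifs at Ccr1 +27.1 and +40.4 kb lay 35 bp and 17 bp from the centres of PU.1 peaks, and the C/EBP motif at Ccr3 +15.9 kb lay 41 bp from the centre of a PU.1 peak. Among windows of the same length at 67730 C57 regions, 12.8% held the EGR motif, 15.8% the C/EBP motif, 10.1% the PU.1 motif, 7.18% the STAT6 motif and 0.573% the PPAR motif. Among 32851 promoters the shares were 14.3%, 10.8%, 4.07%, 6.95% and 0.381%. None of these letters occurred in the windows at Ccr3 -5.2 kb, Ccr2 +10.8 kb, Ccrl2 -1.8 kb and Ccrl2 -5.5 kb, which says only that these spellings were not in those windows.

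To follow the locus through the IL-4 response, H3K27ac and Pol II were compared with basal at 1 h, 6 h and 24 h in C57 BMDMs. H3K27ac around the receptor genes fell soon after IL-4, with most of the called regions at Ccr1 and Ccr3, while the Ccr1 start stood above its basal level at 6 h without passing the test. At 1 h, 22 of 48 regions fell and none rose by limma (adjusted p under 0.05), where 8.36% of all regions fell and 1.37% rose. The 22 were 11 regions of Ccr1, 4 of Ccr2, 6 of Ccr3 and 1 of Ccrl2. A fold rule was used beside the test, in which group means plus 1 differ 2.5-fold or more with 16 or more normalized tags in a group (8 for Pol II). It takes its thresholds from the study, which required the change in H3K27ac and Pol II together, and was applied here to each mark alone. By this rule 36 of 48 were lower, against 20.6% of all regions. The median log2 difference was -1.77 over the 48 regions and -0.63 over all regions of the table.

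At 6 h, 5 of 48 regions fell by limma and none rose, where 2.46% of all regions fell and 2.67% rose. These were Ccr3 -5.2, -1.9 and +15.9 kb and Ccr2 +1.4 and +10.8 kb. The fold rule gave 15 lower, with 8.63% of all regions lower, and 2 higher, with 5.59% of all regions higher. Both of the higher ones were in Ccr1, at its start and in its intron at +3.7 kb. At 24 h no region passed limma in either direction, with 0.327% of all regions lower and 1.13% higher, although 13 were lower at an unadjusted p under 0.05 (9.02% of all regions), and edgeR called 0 as well. By the fold rule 12 were lower at 24 h, against 7.09% of all regions, and the median was -0.89 beside -0.22 for all regions. The 3 times share the same basal libraries.

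The genes differed in how far H3K27ac stood below basal. Median log2 differences at 1 h were -2.01 for Ccr3, -1.97 for Ccr1, -1.91 for Ccr2 and -1.38 for Ccrl2. At 24 h they were -1.55 for Ccr3, -0.99 for Ccr2, -0.87 for Ccr1 and -0.44 for Ccrl2. Ccr3 therefore had the lowest median at both times and Ccrl2 the one nearest to the whole table, as a description over neighbouring regions that are not replicates. The promoters of the 5 macrophage genes moved in the same direction, with medians of -1.67, -0.83 and -1.11 at 1 h, 6 h and 24 h, and none of them passed limma.

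**Figure D1:**
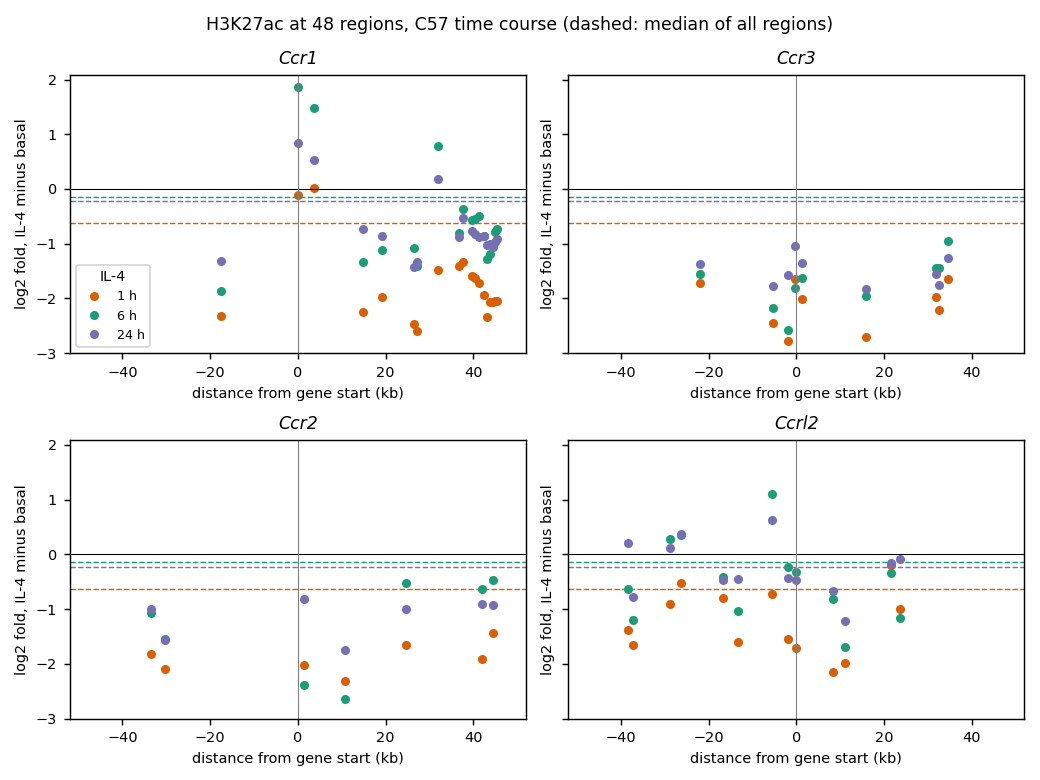
Log2 difference of H3K27ac between IL-4 and basal (y axis) for the 48 regions of the C57 time course by distance from the gene start in kb (x axis), with 1 panel per gene, 1 point per region and time, and dashed lines for the median of all regions at each time. At 6 h the Ccr1 start stands at 1.86 and the lowest region, Ccr2 +10.8 kb, at -2.64.

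The counts rest on 2 libraries a time. Without basal replicate 2 no region was called at 1 h or 6 h. The count at 1 h was 10 without basal replicate 1, 34 without 1 h replicate 1 and 3 without 6 h replicate 1 or 2. The count at 6 h was 0 without 6 h replicate 1 or 2, 13 without 1 h replicate 1 and 11 without 1 h replicate 2, and at 24 h it was 6 without 1 h replicate 1 or 2. The share of H3K27ac tags that fell inside regions was 69.72% and 63.77% in the basal libraries, 43.95% and 20.54% at 1 h, 51.03% and 50.25% at 6 h, and 46.44% and 41.23% at 24 h, and its part in the lower values was not tested. Scaling libraries by the median ratio over regions moved the table median at 1 h from -0.63 to 0.09 and left 3 regions called by limma and 11 by the fold rule. At 6 h the same scaling left 4 called. No share of all regions stands beside the counts with this scaling, so they do not show whether the locus exceeded the table.

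Ccr1, which encodes a receptor for inflammatory chemokines, stood above its basal H3K27ac at its start and below it at +27.1 and +40.4 kb at 6 h and 24 h, and only falls at distal regions at 1 h passed the test. At the Ccr1 start (chr9:123968183-123969183, promoter), H3K27ac was 49.53 and 74.87 in the basal libraries, 169.29 and 18.24 at 1 h, 283.39 and 176.48 at 6 h, and 94.22 and 129.29 normalized tags at 24 h. Both 6 h libraries and both 24 h libraries stood above both basal ones, while the 1 h libraries lay on either side of them (log2 difference -0.11). The log2 difference was 1.86 with a standard error (SE) of 0.75 at 6 h (adjusted p 0.163) and 0.85 at 24 h (adjusted p 0.557), so that neither passed the test. Pol II at the start was 124.79, 37.71, 51.99 and 41.52 at basal, 138.62 in the single 1 h library, 203.70 and 199.88 at 6 h, and 100.04, 106.49 and 73.11 at 24 h. The 6 h libraries were higher than all 4 basal ones (log2 difference 1.82, adjusted p 0.0845), whereas 1 basal library overlapped the 24 h values. With the replicate number as a block, which paired the Pol II libraries and left out the unpaired basal replicate 4, the 6 h difference was 1.52 (SE 0.37) and passed the test (adjusted p 0.0469).

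The intron of Ccr1 at +3.7 kb (chr9:123964467-123965467) followed its start. H3K27ac there was 21.03 and 33.51 at basal, 67.25 and 10.33 at 1 h, 158.64 and 35.9 at 6 h, and 39.05 and 38.72 at 24 h. Pol II was 52.41, 6.42, 18.22 and 7.09 at basal and 121.02 and 70.20 at 6 h, with a log2 difference of 2.56 (adjusted p 0.0816). The 6 h values of both marks exceeded every basal library at this region, and neither difference passed the test. In the blocked fit Pol II rose here too (log2 2.14, adjusted p 0.0403), and these 2 regions were the 2 of 48 that it called higher at 6 h, where 0.658% of all regions were.

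Downstream of Ccr1, H3K27ac at +27.1 and +40.4 kb stood below basal at all 3 times in these C57 libraries. At Ccr1 +27.1 kb (chr9:123941083-123942083, intergenic), H3K27ac was 206.24 and 376.49 at basal, 56.43 and 36.14 at 1 h, 109.35 and 99.8 at 6 h, and 91.67 and 132.57 at 24 h. Every IL-4 library was below both basal ones, and the 1 h difference passed the test (log2 -2.60, SE 0.56, adjusted p 0.0155). Upstream of the gene at -17.6 kb (chr9:123985822-123986822), H3K27ac was 103.12 and 218.91 at basal and 27.83 and 30.98 at 1 h, and it fell as well (log2 -2.32, adjusted p 0.0208). In the strongest region, at +40.4 kb, the libraries held 1460.66 and 1089.54 at basal, 776.89 and 213.08 at 1 h, 1021.91 and 733.3 at 6 h, and 953.24 and 529.64 at 24 h, and no time passed the test. The Egr2 fl/fl libraries, with intact Egr2, did not show a fall at this place. They held 726.82 and 972.66 at basal and 727.67 and 952.47 at 24 h (log2 -0.01), and the 2 sets were not tested against each other. The block from +42.4 to +45.5 kb fell at 1 h in all 6 of its windows, with log2 differences from -2.33 to -1.93. These windows also carried the highest Pol II of the locus, with 456.12, 727.82, 597.04 and 670.34 in the basal libraries at +43.9 kb and 242.71 in the 1 h library. The promoter mark H3K4me3 was high there too, with basal means at +45.0 kb of 612.2 in BALB and 499.5 in NOD. The Ccr1 start had 20.7 and 21.9, and SPRET had only 1.77 in the block at +44.4 kb. The block was assigned to Ccr1 by distance alone.

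Ccr3, the eotaxin receptor, had the lowest median log2 differences of H3K27ac of the 4 genes in C57 at 1 h and 24 h. Its 24 h median was also the lowest in BALB (-1.10) and NOD (-0.86). In PWK it was -0.48, with Ccr2 at -0.65 and Ccrl2 at -0.55. In SPRET it was -0.23, with Ccrl2 lowest at -0.36. At Ccr3 +15.9 kb (chr9:124037397-124038397, intergenic), H3K27ac was 442.34 and 611.09 at basal, 88.12 and 71.6 at 1 h, 133.23 and 135.1 at 6 h, and 121.38 and 173.26 at 24 h. All 6 IL-4 libraries lay below both basal ones, with log2 differences of -2.70 at 1 h (SE 0.54, adjusted p 0.0133), -1.95 at 6 h (adjusted p 0.0442) and -1.83 at 24 h (adjusted p 0.0963). Pol II in the same window was 85.48, 104.32, 142.56 and 167.08 at basal, 29.96 at 1 h, 40.52 and 38.03 at 6 h, and 42.02, 43.69 and 46.17 at 24 h. No IL-4 library reached the lowest basal one, and the log2 differences of -1.98, -1.60 and -1.44 had adjusted p-values of 0.134, 0.0733 and 0.0594. In the blocked fit Pol II fell here at 24 h (log2 -1.28, adjusted p 0.0181), as 1 of 3 regions of Ccr3 that fell where none did without the block, and 1.03% of all regions fell.

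Nearer to Ccr3 the pattern was the same in H3K27ac. At -5.2 kb (chr9:124016282-124017282) it was 191.32 and 395.03 at basal, 42.52 and 57.14 at 1 h, 63.15 and 56.59 at 6 h, and 64.51 and 99.76 at 24 h, and it fell at 1 h (log2 -2.46, adjusted p 0.0187) and 6 h (-2.18, adjusted p 0.031). At -1.9 kb (chr9:124019584-124020584) it was 210.99 and 540.49 at basal and 51.6 and 60.85 at 6 h, and it fell at 1 h (-2.77, adjusted p 0.0161) and 6 h (-2.57, adjusted p 0.0196). The promoter region itself, at -0.2 kb (chr9:124021294-124022294), held 67.84 and 246.0 at basal, 61.84 and 26.85 at 1 h, 44.67 and 29.21 at 6 h, and 48.38 and 80.07 at 24 h. Its 24 h libraries overlapped the basal ones and it passed no test, with log2 differences of -1.64, -1.81 and -1.04. In the strongest region at +34.6 kb, H3K27ac was 623.48 and 682.39 at basal and 240.22 and 309.12 at 24 h (log2 -1.26, not called).

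Ccr2, the receptor for CCL2, had its strongest H3K27ac upstream. At Ccr2 -33.4 kb the libraries held 631.62 and 815.02 at basal, 267.47 and 154.56 at 1 h, 360.4 and 319.49 at 6 h, and 317.46 and 406.91 at 24 h. All IL-4 libraries were below the basal ones, and the 1 h difference of -1.81 just missed the test (adjusted p 0.0517). Its neighbour at -30.3 kb (chr9:124071187-124072187) held 337.86 and 447.08 at basal and 99.72 and 81.24 at 1 h and fell (log2 -2.10, adjusted p 0.0261). In the first intron at +1.4 kb, H3K27ac was 94.3 and 154.02 at basal, 20.1 and 41.31 at 1 h, 20.79 and 23.73 at 6 h, and 53.48 and 87.29 at 24 h, which was a fall at 1 h (-2.02, adjusted p 0.036) and 6 h (-2.39, adjusted p 0.0221). At +10.8 kb (chr9:124112253-124113253, intergenic in the table), H3K27ac was 34.6 and 59.9 at basal, 5.41 and 12.74 at 1 h, 8.47 and 4.87 at 6 h, and 11.88 and 13.78 at 24 h. This region also fell at 1 h (-2.31, adjusted p 0.0287) and 6 h (-2.64, adjusted p 0.0184). The basal Pol II libraries disagreed at Ccr2, with 4.99, 41.73, 83.61 and 144.80 at +1.4 kb, and the IL-4 libraries from 8.12 to 53.87 lay within that range.

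Ccrl2, the chemerin-binding receptor, had the medians nearest to those of the table in C57. At its start (chr9:111057050-111058050, promoter), H3K27ac was 203.53 and 53.48 at basal, 53.34 and 18.24 at 1 h, 55.45 and 124.75 at 6 h, and 132.42 and 42.66 at 24 h. The 1 h libraries were below both basal ones, the others lay within the wide basal range or near it, and no time was called. At -1.8 kb the libraries held 235.41 and 121.93 at basal, 81.94 and 39.59 at 1 h, 134.77 and 153.35 at 6 h, and 139.21 and 111.57 at 24 h, with the 1 h libraries below both basal ones (log2 -1.55, adjusted p 0.0823). The 1 Ccrl2 region that fell was +11.1 kb (chr9:111045926-111046926), with 65.13 and 70.59 at basal and 14.69 and 18.24 at 1 h (log2 -1.99, adjusted p 0.0387).

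**Figure D2:**
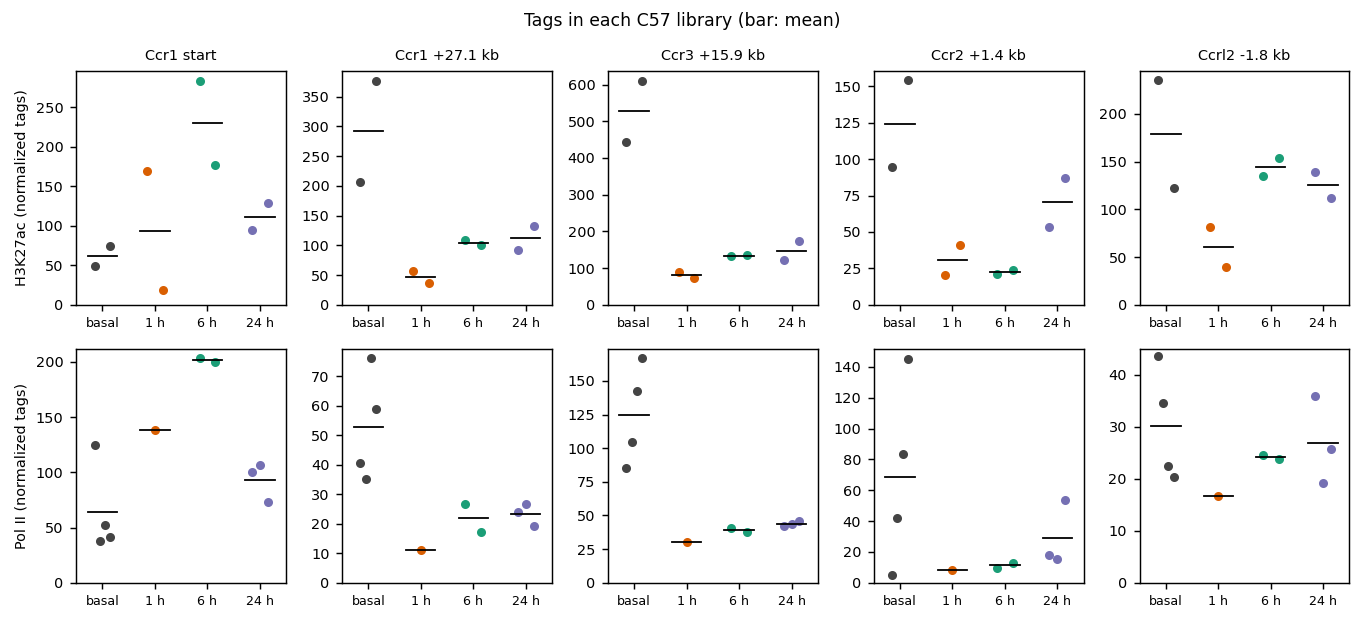
Normalized tags of H3K27ac (upper row) and Pol II (lower row) in each C57 library (points) at basal, 1 h, 6 h and 24 h of IL-4 (x axis) at 5 regions, with bars for the means. At the Ccr1 start both 6 h Pol II libraries (203.70 and 199.88) exceed every basal one, and at Ccr3 +15.9 kb every IL-4 library of both marks lies below every basal one.

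No region of the locus fell by limma in Pol II at any time in C57, where 0.0449%, 0.137% and 0.174% of all regions were lower at 1 h, 6 h and 24 h, and edgeR gave 0 at each. At an unadjusted p under 0.05, 19, 11 and 10 of 48 regions were lower, against 6.83%, 5.1% and 4.95% of all regions. By the fold rule 18 were lower at 1 h (6.56% of all regions), 12 at 6 h (2.57%) and 4 at 24 h (1.55%), and 2 were higher at 6 h (2.52%), again the start and the +3.7 kb intron of Ccr1. The 1 h group was 1 library, taken to vary like the others. Medians were -1.19, -0.56 and -0.35 beside -0.18, -0.02 and -0.02 for all regions.

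Among the genes listed with the receptors, 7 of 11 ligand genes and 6 of 20 other chemokine and chemerin receptor genes had a promoter region in C57. No ligand promoter passed the test for H3K27ac, and in Pol II 1 of 7 rose at 6 h and at 24 h. This was Ccl7, a ligand of CCR2, whose mean Pol II went from 24.5 at basal to 402 at 6 h (log2 4.06, adjusted p 0.0115). Of the 6 other receptors 3 fell in H3K27ac at 1 h and 2 at 6 h and 24 h, to be read beside the shares of all regions given above for each time. Cx3cr1, the fractalkine receptor, went from a mean of 160.7 at basal to 15.7 at 1 h and 7.89 at 6 h (log2 -3.27 and -3.95, adjusted p 0.0147 and 0.00366), and it stayed lower at 24 h (-3.48, adjusted p 0.0153), and Cxcr3 from 116.5 to 18.8 at 24 h (log2 -2.59, adjusted p 0.0362). The third was Cxcr4, the receptor for CXCL12, which fell at 1 h alone (adjusted p 0.0394). In Pol II 1 of the 6 other receptors fell at 6 h and at 24 h. At 1 h, with 1 Pol II library, falls are not counted here. The median log2 difference of the 6 was then -0.51, beside -0.18 for all regions. The share of all regions that rose in Pol II was not set beside the rise of Ccl7. Of the IL-4 response genes, Arg1 rose at 6 h from a mean of 62.5 to 394 (adjusted p 0.0302).

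Promoters whose H3K27ac ran most like that of a member were named from 12274 promoters over the 8 libraries, as a description. Pearson's r with the Ccr1 start was 0.986 for Hsf4, 0.977 for Spsb4 and 0.968 for Wfs1. With Ccr2 -33.4 kb it was 0.998 for Kcnk13, 0.995 for Itga6 and 0.988 for Arhgap17. With the Ccr3 promoter it was 0.975 for Col18a1, 0.959 for Dgkz and 0.945 for Dennd2c, and with the Ccrl2 start 0.989 for Glmn. The points share libraries and depth.

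To ask whether the response held across genetic backgrounds, the 24 h and basal libraries were compared within each strain, since each table was normalized on its own. The median around the receptor genes was below basal in every strain, as was that of all regions, with smaller differences outside C57. Median log2 differences of H3K27ac near the members were -0.91 in C57, -0.61 in BALB, -0.51 in NOD, -0.53 in PWK and -0.23 in SPRET, beside -0.28, -0.30, -0.20, -0.18 and -0.09 for all regions of each table. No member region fell by limma in any strain, with 0%, 0.653%, 0%, 0.0482% and 0.192% of all regions lower. A fit with the replicate number as a block did call falls in C57, NOD and PWK. It rests on shared replicate numbers, and its counts stand in the last section beside the shares of all regions. At an unadjusted p under 0.05, 24 of 43 were lower in C57 (15.1% of all regions), 4 of 51 in BALB (6.69%), 1 of 52 in NOD (6.91%), 8 of 41 in PWK (5.41%) and 1 of 27 in SPRET (5.89%), and DESeq2 called 1 each in C57, BALB and PWK while edgeR called none. The fold rule gave 11 lower in C57 (7.55% of all regions), 5 in BALB (5.13%), 0 in NOD (5.14%), 4 in PWK (3.01%) and 0 in SPRET (0.939%). Differences between strains were not tested. In C57 the count was 4 with median-ratio scaling and 5 without basal replicate 2. No share of all regions stands beside the counts with this scaling or with 1 library left out. In BALB the count was 20 when 24 h replicate 1 was left out. It was 14 when basal replicate 1 was left out, and 1 for the other basal or 24 h library. In NOD leaving out basal replicate 1 gave 18, either 24 h library 5 or 6, and basal replicate 2 gave 1. In PWK leaving out basal replicate 1 gave 7, 24 h replicate 2 gave 6, and basal replicate 2 gave 2. The share of tags in regions was 57.14% in that library and 28.7% in the other BALB 24 h library, and its part was not tested.

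Of 43 C57 regions, 19 had a partner with its centre within 500 bp in all 5 strains. H3K27ac was lower at 24 h in all 5 strains at 15 of these 19, and higher in all 5 at 1, the Ccr1 start. The share of all matched regions with a shared direction was not counted, and the median over all regions was below 0 in every strain. H3K4me2 was lower in all 5 strains at 14 of the 19. The count of 15 therefore does not single out the locus. At the Ccr1 start the log2 differences were 0.85 in C57, 0.65 in BALB, 1.05 in NOD, 0.24 in PWK and 0.67 in SPRET, and the PWK value turned to -0.25 without 24 h replicate 1. Basal and 24 h libraries were 31.59 and 64.3 against 87.52 and 102.44 in NOD, and 81.21 and 146.85 against 193.07 and 157.23 in SPRET, without overlap. In PWK they were 202.57 and 217.68 against 347.49 and 176.56, and in BALB 44.09 and 86.38 against 124.25 and 76.7, with overlap in both. None passed the test (adjusted p 0.282 to 0.923). A fit with the replicate number as a block called the start higher in C57 and NOD and is given in the last section. Pol II at the same place was higher at 24 h in all 5 strains as well, from a log2 difference of 0.10 in SPRET to 1.18 in BALB. It was again without a call, except in NOD in the blocked fit. The SPRET value turned to -0.33 without basal replicate 1 and to -0.15 without 24 h replicate 2.

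At Ccr3 +15.9 kb the basal libraries stood above the 24 h ones in every strain. H3K27ac was 199.19 and 201.5 against 126.07 and 157.23 in SPRET, 242.05 and 378.19 against 228.29 and 183.24 in PWK, 216.94 and 576.28 against 148.27 and 187.99 in NOD, and 349.06 and 462.31 against 176.96 and 80.03 in BALB. The log2 difference ranged from -1.84 in C57 to -0.51 in SPRET. At Ccr1 +27.1 kb it ranged from -1.50 in PWK to -0.90 in NOD, with the basal libraries again above the 24 h ones in all 5 strains. These 2 regions therefore showed in each strain the direction seen in C57.

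Without a replicate block, Pol II fell by limma at 1 region in PWK and 1 in SPRET. Both lay in the pair of overlapping windows near Ccr1 +27.1 kb. None fell in C57, BALB and NOD, where 0.096%, 0.0444% and 0% of all regions fell. At +26.5 kb in PWK, Pol II was 66.31, 72.04 and 114.4 at basal and 26.6, 30.17 and 30.79 at 24 h (log2 -1.46, SE 0.30, adjusted p 0.0215), where 0.281% of all regions were lower. At +27.1 kb in SPRET it was 63.86, 42.64 and 62.12 at basal and 14.37, 23.33 and 22.16 at 24 h (log2 -1.46, SE 0.29, adjusted p 0.0431), where 0.27% were lower. The SPRET call was lost on leaving out any 1 of the 6 libraries (adjusted p 0.0593 to 0.206) and with median-ratio scaling (adjusted p 0.0559). The PWK call was lost on leaving out any 1 except basal replicate 1 (adjusted p 0.0602 to 0.154). Both calls stayed with edgeR (adjusted p 0.0177 in PWK and 0.0212 in SPRET) and DESeq2 (0.00233 and 0.0113). They also stayed in limma with the replicate number as a block (adjusted p 1.49e-06 and 0.00221). With the replicate number as a block, 3 of 43 regions were lower in C57 where none was without it. Of all regions in that fit, which left out basal replicate 4, 0.384% were lower. In PWK the block gave 5 of 41 (3.82%) and in SPRET 5 of 27 (4.83%). These included the Ccrl2 start in SPRET (log2 -1.035, adjusted p 0.00144) and in PWK (-0.74, adjusted p 0.0278). That start was not called in C57, NOD and BALB (log2 -0.31, -0.23 and 0.73). Others were Ccrl2 -37.3 kb in PWK and Ccrl2 -5.5 kb in SPRET. By the fold rule Pol II was lower at 4 regions in C57 (1.66% of all regions), 0 in BALB (0.929%), 2 in NOD (1.25%), 1 in PWK (0.932%) and 1 in SPRET (0.805%). In SPRET, Pol II at Ccr3 +15.9 kb was 73.54, 54.82 and 70.85 at basal and 38.87, 32.51 and 43.4 at 24 h. This was the direction seen in C57 (log2 -0.78, adjusted p 0.175). It passed the test with the replicate number as a block (adjusted p 0.0202).

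**Figure D3:**
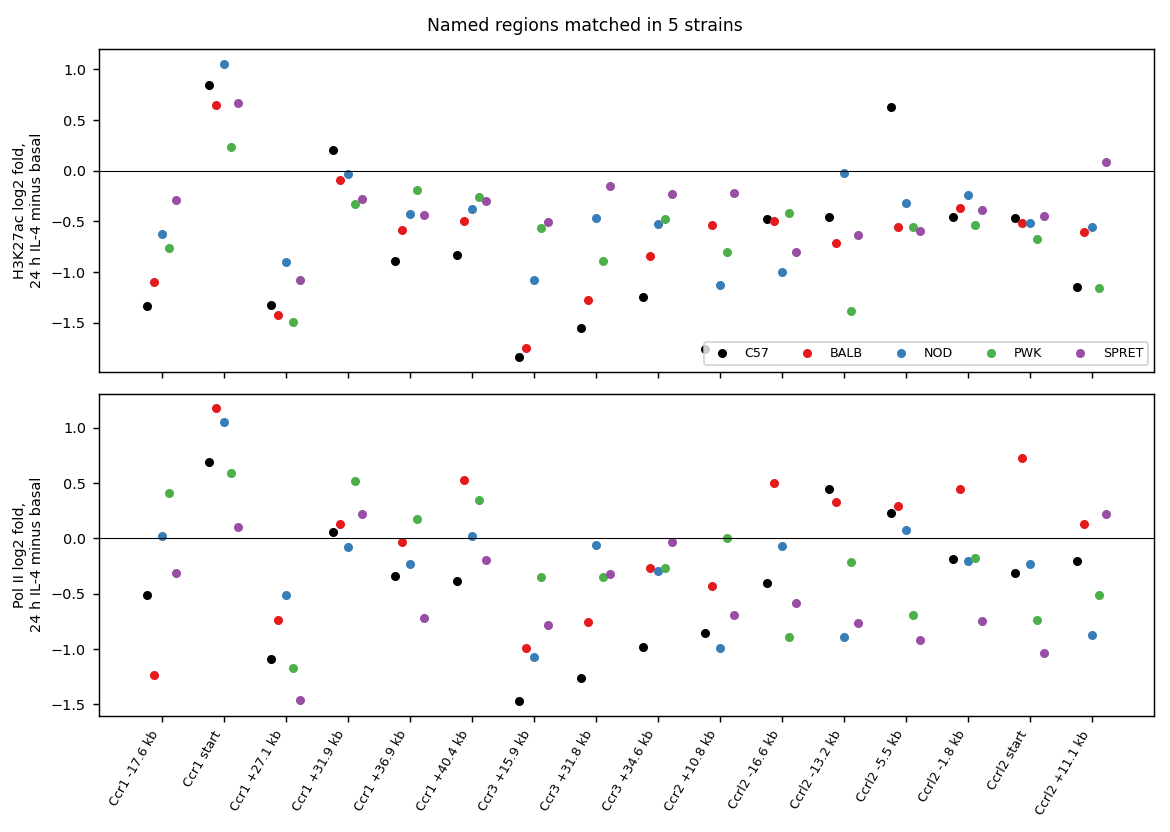
Log2 difference between 24 h of IL-4 and basal in H3K27ac (upper panel) and Pol II (lower panel) at 16 of the regions matched in 5 strains (x axis), with 1 point per strain. In both panels the Ccr1 start alone is above 0 in all 5 strains, from 0.24 to 1.05 in H3K27ac and from 0.10 to 1.18 in Pol II, and the lowest of each, PWK and SPRET, turned below 0 (-0.25 and -0.33) when 1 library was left out.

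H3K4me2 and H3K4me3 were compared in the same way. No member region fell by limma for either mark in any strain. Of all regions, 0.0576% fell in H3K4me2 in C57, 0.0218% in NOD, 0.00332% in PWK and 0% in BALB and SPRET, and in H3K4me3 0.00435% fell in NOD, 0.00332% in PWK and 0% elsewhere. At an unadjusted p under 0.05, 11 regions were lower in H3K4me2 in C57 (31.8% of all regions), 1 in BALB (1.13%), 7 in NOD (6.4%), 3 in PWK (1.59%) and 6 in SPRET (31.4%), and edgeR and DESeq2 called none. Leaving out 24 h replicate 1 brought calls of lower regions in C57 and BALB, in fits with 1 library at 24 h. The share of all regions called there is not given, so those calls do not single out the locus. Median H3K4me2 differences were -0.63 in C57, -0.71 in BALB, -0.34 in NOD, -0.46 in PWK and -0.43 in SPRET, beside -0.69, -0.63, -0.30, -0.18 and -0.48 for all regions. The members thus lay within 0.1 of their table in 4 strains and further below it in PWK. H3K4me3 had 1 region past the fold rule, Ccr2 -33.4 kb, which was higher in C57, where 0.639% of all regions were.

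Levels at some elements differed widely between strains already at basal, as values set side by side without a test. At Ccrl2 -5.5 kb (chr9:111062538-111063538, intergenic), basal H3K27ac was 325.71 and 357.56 in SPRET, 271.24 and 294.41 in PWK, 249.36 and 172.25 in NOD, 308.64 and 151.92 in BALB, and 48.17 and 16.4 in C57. Both C57 libraries were below every library of the other 4 strains, and SPRET was above the other strains. PWK was above NOD, and BALB overlapped both. After 24 h the region held 55.17 and 35.44 in C57 and 98.14 to 261.84 in the others. Its neighbour at -1.8 kb did not share this order, with basal means of 180.0 in C57, 182.7 in BALB, 204.5 in NOD, 266.1 in PWK and 204.1 in SPRET. The reproducible peak lists differed at -5.5 kb as well. Ranks hold within a list, and lists differed in length. The basal C57 lists had a PU.1 peak alone, ranked at 81.3% of its list from the top, whereas in the other 4 strains PU.1 ranked within the top 3.47% to 5.37% at basal, and C/EBPβ, STAT6 and PPARγ peaks were present at both times. The 24 h C57 lists had PU.1, C/EBPβ, STAT6 and EGR2 peaks there and still none of PPARγ. The tag table of the EGR2 time course marks the site at basal too, with 47.77 and 57.75 normalized tags of EGR2 at basal and 61.94 and 33.6 at 24 h, so that EGR2 overlapped between the times.

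Ccr1 +31.9 kb (chr9:123936331-123937331, intergenic) stood out in PWK. Basal H3K27ac was 281.54 and 319.47 in PWK, 116.26 and 207.43 in SPRET, 40.73 and 68.26 in NOD, 29.39 and 66.13 in BALB, and 32.56 and 74.16 in C57. The last 3 strains overlapped, and PWK was above all the others. Basal Pol II there had means of 95.9 in PWK, 18.2 in SPRET and 5.70 to 6.75 in the other strains. The C/EBPβ peak, at the motif shown above, ranked in the top 0.284% of the PWK list at basal and the top 0.0502% at 24 h, against 26.3% and 4.41% in C57. PPARγ at 24 h ranked in the top 0.284% in PWK and 3.93% in C57.

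In the block downstream of Ccr1 the low strain was SPRET. At +44.4 kb basal H3K27ac was 1168.93 and 807.89 in C57 and 2.56 and 1.32 in SPRET. At +43.2 kb it was 1012.22 and 880.62 in C57, 820.58 and 701.57 in PWK, and 4.27 and 3.95 in SPRET. Pol II at +43.2 kb had a basal mean of 403.2 in C57, 329.1 in PWK and 0.817 in SPRET. SPRET was thus near 0 in both marks at an element that was among the strongest of C57 and PWK. The study aligned reads to a genome made for each strain and moved the positions to mm10, and the part that sequence or alignment has in these levels was not tested.

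**Figure D4:**
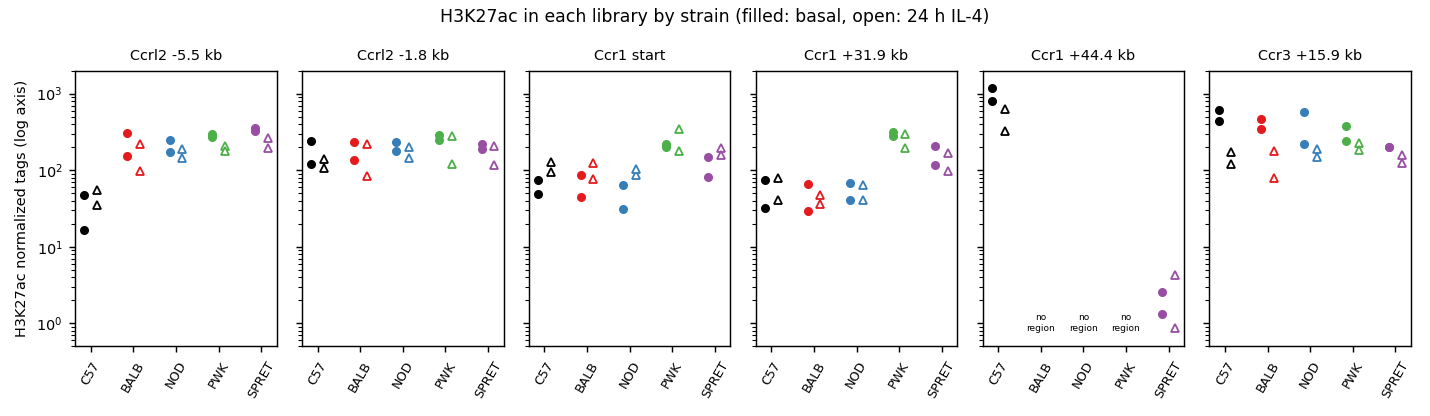
H3K27ac in normalized tags on a log axis (y axis) in each library of the 5 strains (x axis) at 6 regions, filled symbols for basal and open symbols for 24 h of IL-4, with the words no region where a strain's table had none within 500 bp. Ccrl2 -5.5 kb is lowest in C57 (48.17 and 16.4 at basal), Ccr1 +31.9 kb is highest in PWK (281.54 and 319.47), and Ccr1 +44.4 kb is near 0 in SPRET (2.56 and 1.32).

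To see which factors occupy the locus, reproducible peaks of EGR2, PPARγ, STAT6, C/EBPβ and PU.1 were placed on the regions. Each list was made from the replicates of 1 strain and time, so that no replicate error can be given. The Ccr1 start carried PU.1, C/EBPβ and EGR2 peaks in 5 of 5 strains at both times, STAT6 in 4 at basal and 5 at 24 h, and PPARγ in 1 at basal, PWK, and 5 at 24 h. Ccr3 +15.9 kb carried PU.1, C/EBPβ, STAT6 and PPARγ in all 5 strains at both times and EGR2 in 4. Ccr3 -5.2 kb and Ccr2 +10.8 kb carried PU.1 in all 5 strains at both times and no EGR2. The intron of Ccr1 at +3.7 kb carried C/EBPβ in all 5 strains and no PU.1.

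**Figure D5:**
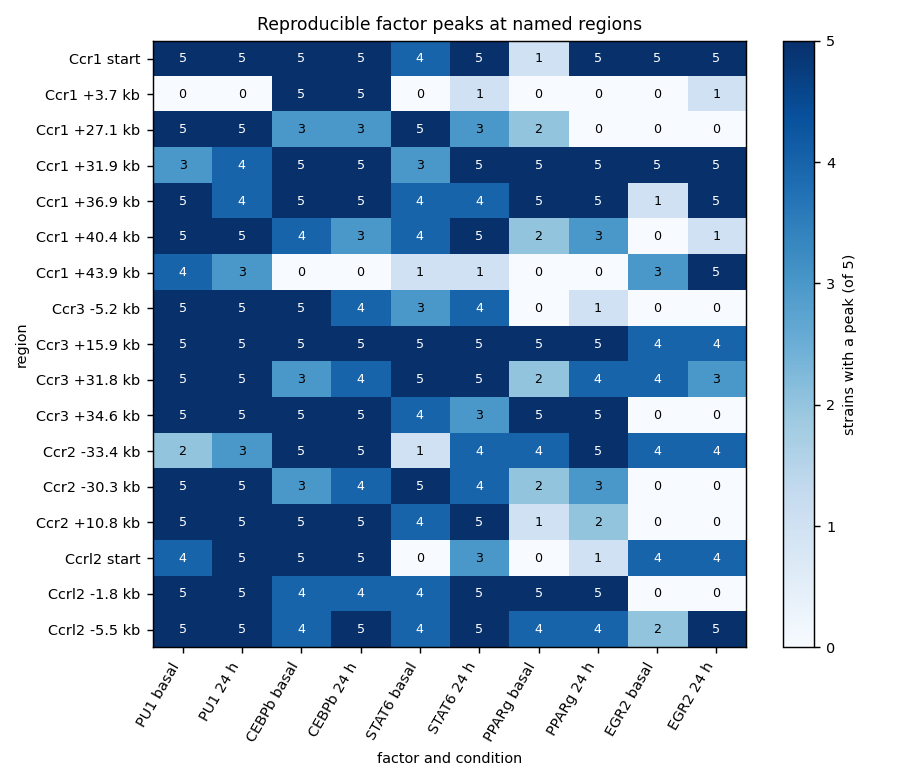
Number of the 5 strains with a reproducible peak (colour and digit) of each factor at basal and at 24 h of IL-4 (x axis) at 17 named regions (y axis). PPARγ at the Ccr1 start goes from 1 strain to 5, and EGR2 is in 5 of 5 strains at both times there and at Ccr1 +31.9 kb.

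Peak counts near the members were higher at 24 h than at basal in C57 for all 5 factors, while the share of each list that they made up was lower. The share went from 0.184% to 0.0972% for PPARγ, 0.0948% to 0.0782% for EGR2, 0.15% to 0.117% for C/EBPβ, 0.15% to 0.129% for STAT6 and 0.0908% to 0.0886% for PU.1, so that the lists grew more than the counts. PPARγ peaks went from 14 to 38, with 24 without a basal partner and none lost, while 84% of the whole 24 h list had no basal partner and 17.8% of the basal list was lost. EGR2 went from 8 to 23 with 15 gained and none lost, against 72.5% gained and 4.17% lost in the whole lists. C/EBPβ went from 27 to 44 with 18 gained and 1 lost (53.8% and 4.08% in the whole lists), STAT6 from 46 to 51 with 16 gained and 11 lost (41.2% and 24%), and PU.1 from 78 to 80 with 11 gained and 9 lost (18.9% and 14.7%). When the longer list was cut to the length of the shorter one, PPARγ had 5 gained and 4 lost. C/EBPβ then had 6 and 4, and EGR2 3 and 3. The other strains did not all share the directions of C57. EGR2 peaks went from 13 to 9 in NOD, and the PPARγ share from 0.127% to 0.157% in SPRET.

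EGR2, an IL-4-induced transcription factor, was also measured in tags at 23 sites near the members in the C57 time course. It was highest at the Ccr1 start, with 168.59 and 201.45 at basal, 37.03 and 181.31 at 1 h, 96.02 and 215.95 at 6 h, and 258.97 and 173.77 at 24 h. Basal and 24 h libraries overlapped, so EGR2 was already there before IL-4 at a level that 24 h did not clear. At Ccr1 +31.8 kb it was 101.15 and 104.75 at basal, 22.58 and 103.19 at 1 h, 48.88 and 164.0 at 6 h, and 176.39 and 123.84 at 24 h, both above basal. No site of the 23 passed limma at any time, nor did any site of the table (0% of all sites), and at an unadjusted p under 0.05 1 was lower at 1 h (3.18% of all sites) and 1 higher at 6 h (3.47%). Median log2 differences were -0.81, -0.33 and 0.44 at 1 h, 6 h and 24 h, beside -0.59, 0.17 and 0.66 for all sites. In 1 h replicate 1, 5.376% of tags lay in sites, against 10.77% to 22.03% in the other 7 libraries, and the part of this in the 1 h values was not tested. By the fold rule 2 sites were lower at 1 h (4.63% of all sites), 1 was higher at 6 h (6.39%) and 1 at 24 h (10.4%). Leaving out 1 h replicate 2 moved the 1 h median to -1.65 at the 23 sites and -1.21 over all sites. Without 1 h replicate 1 these medians were both 0.09, and without basal replicate 1 they were -1.09 and -0.74.

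The comparison of Egr2 genotypes covered 1 site near the members, at Ccr1 +40.4 kb (chr9:123928112-123928412), and asked whether loss of EGR2 changed it. H3K27ac was 726.82 and 972.66 at basal and 727.67 and 952.47 at 24 h in Egr2 fl/fl cells, and 745.16 and 965.79 at basal and 864.45 and 1025.56 at 24 h in LyzM-Cre Egr2 fl/fl cells. The groups overlapped, although for each replicate number the LyzM-Cre Egr2 fl/fl library at 24 h stood above its own basal one and above the Egr2 fl/fl one at 24 h. The interaction of genotype and IL-4 was 0.16 on the log2 scale (SE 0.30, adjusted p 0.871), and with the replicate number as a block its adjusted p was 0.427. The sites compared were only EGR2 peaks induced by 24 h of IL-4. Of all of them, 23.2% were lower and 1.41% higher in LyzM-Cre Egr2 fl/fl at 24 h, and this site was among neither. EGR2 was low at this site in the C57 time course, with 15.45 and 5.37 at basal and 26.48 and 20.16 at 24 h. It had a peak in 1 of 5 strains at 24 h, so this site cannot speak for the other EGR2 sites of the locus. PU.1 was 172.55 and 177.31 at basal and 158.5 and 144.63 at 24 h in Egr2 fl/fl, and 156.18 and 170.72 at basal and 186.01 and 166.14 at 24 h in LyzM-Cre Egr2 fl/fl, with an interaction of 0.31 (adjusted p 0.645). PPARγ was 33.73 and 0 at basal and 88.07 and 69.33 at 24 h in Egr2 fl/fl, where the 24 h libraries were higher without a call (adjusted p 0.241), and 33.01 and 72.67 at basal and 26.41 and 56.84 at 24 h in LyzM-Cre Egr2 fl/fl. The PPARγ interaction of -4.08 had an adjusted p of 0.503, and it rests on the basal library at 0. STAT6 was 26.81 and 16.75 at basal and 33.61 and 48.69 at 24 h in Egr2 fl/fl, and 28.97 and 13.77 at basal and 50.52 and 19.15 at 24 h in LyzM-Cre Egr2 fl/fl. Without a block, STAT6, C/EBPβ and H3K4me2 were not called in any comparison. With the replicate number as a block, STAT6 in Egr2 fl/fl was higher at 24 h (log2 0.90, SE 0.35, adjusted p 0.0402). The median over all sites was 1.04 for this comparison, so the rise does not single out this site. Pol II, with 1 library a group and hence no test, was 177.76 at basal and 214.38 at 24 h in Egr2 fl/fl and 212.54 and 283.48 in LyzM-Cre Egr2 fl/fl.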

How the data were processed

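The authors aligned reads with Bowtie2 to a genome made for each strain, moved positions to mm10, and counted tags with HOMER. The deposited signal values are tags in 1000 bp around region centres for histone marks and Pol II, and in 300 bp around EGR2 sites for factors in the Egr2 genotypes, scaled by the authors to 1e+07 tags per library. Peak lists were made by the authors with HOMER and kept by IDR across replicates, and the deposited score in them was used only to rank peaks within a list. The strain tables were normalized separately, so that strains were not tested against each other. C57 basal and 24 h libraries stand in both C57 tables. A total of 4 value columns matched no sample's labels and were left out.

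Log2(normalized tags + 1) was fitted with limma 3.58.1 in R 4.3.3, with a trend and without a filter, and p-values were adjusted by Benjamini-Hochberg over each whole table at 0.05. Folds understate changes of low regions. Values multiplied back to reads were whole within 0.1 read, so edgeR 4.0.16 and DESeq2 1.42.0 were run on them as alternatives, beside a pseudocount of 5, median-ratio scaling, a fold of 2, a window of 25 kb, a replicate block and leaving out each library. Replicates were compared by chi-square, and none were identical. The fits were tested on simulated data. Same-numbered libraries deviated together for Pol II in C57, PWK, SPRET and the time course and for H3K27ac, H3K4me2, STAT6, C/EBPβ and PU.1 of the Egr2 genotypes (correlation over 0.1 in every pair of 3 or more, by the numbers in the labels), and not for H3K27ac and EGR2 of the time course or PPARγ.

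Members, lists and named regions were chosen with earlier results of these data known. Regions named are those at the gene start, the strongest of each gene, those called, and those with the widest strain differences, the last chosen after their values were seen. Some regions assigned to Ccr2 enter the counts and are not reported here singly, and one marker list is not reported here. Counting error limits low values, and intervals from sequencing depth were not computed for them.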

Additional observations from a re-analysis of the deposited data

Results flagged for a closer look

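Pol II at the Ccr1 start had 1 of 4 C57 basal libraries far from the others, at 124.79 normalized tags against a lowest of 37.71 and a median of 46.8. Its gap to the nearest library was 0.836 of the range of the group, above the critical value of 0.829. Such a library was found in 3 of 43 groups of 4 libraries tested (6.98%), and chance gives about 1 in 20. Pol II at Ccr1 +42.3 kb was another, with 390.7 against a median of 251 (ratio 0.856).

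H3K27ac at Ccr1 +43.2 kb was flagged because its 24 h libraries lay on opposite sides of basal in C57 and SPRET. Neither difference passed the test (adjusted p 0.900 in SPRET), and SPRET was near 0 here. Both 24 h libraries lay below both basal ones in C57 (log2 difference -1.02) and above them in SPRET (0.31), where the region held 3.95 to 6.46 normalized tags. The difference between the strains was not tested.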

How the results depend on the processing

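With the replicate number as a block, regions lower by limma numbered 28 for H3K27ac (29.6% of all regions in the same fit), 3 for Pol II (0.384%) and 3 for H3K4me3 (13.1%) in C57, 10 for H3K27ac (13.5%) and 2 for Pol II (2.79%) in NOD, 6 for H3K27ac (4.81%), 5 for Pol II (3.82%) and 1 for H3K4me3 (14.4%) in PWK, and 5 for Pol II (4.83%) and 6 for H3K4me2 (29.6%) in SPRET. In the time course the block gave 38, 11 and 6 for H3K27ac at 1, 6 and 24 h (22%, 6.8% and 3.58%) and 3 for Pol II at 24 h (1.03%), and it called the Ccr1 start higher in H3K27ac at 6 h (adjusted p 0.00824). In the strains the block called this start higher at 24 h in H3K27ac in C57 (adjusted p 0.00462, with 8.47% of all regions higher) and NOD (0.0114, 6.47%). It did so too in Pol II in NOD (0.0138, 3.71%) and in H3K4me3 in C57 (0.00104, 3.96%) and BALB (0.00157, 0.787%). The strain H3K27ac pairs number 2, with correlations from 0.507 in SPRET to 0.729 in C57, so that the block rests there on a shared number.
DESeq2 called 1 H3K27ac region in C57, BALB and PWK, and 2 Pol II regions in C57, PWK and SPRET. Median-ratio scaling gave 0 limma calls for SPRET Pol II and 3 for H3K27ac at 1 h, and by the fold rule 4 for H3K27ac in C57, 1 in BALB and 1 in PWK, 1 for BALB Pol II, 0 for BALB H3K4me2, 11 at 1 h and 4 at 24 h.
A fold of 2 gave 10 for C57 Pol II, 6 for C57 H3K4me2, 12, 3 and 6 for BALB H3K27ac, Pol II and H3K4me2, 11 and 4 for NOD H3K27ac and Pol II, 9, 3 and 1 for PWK H3K27ac, Pol II and H3K4me2, and 1 and 2 for SPRET H3K27ac and Pol II. A pseudocount of 5 gave 2 for C57 Pol II, 0 for BALB H3K4me2, 0 for NOD and SPRET Pol II, 2 for time-course Pol II at 24 h and 1 for EGR2 at 1 h. Within 25 kb there were 138 regions and 1074 peaks, with H3K27ac fold counts of 6 in C57, 2 in BALB, 2 in PWK, 15 at 1 h and 7 at 24 h. Matching within 100 bp gave 1 PPARγ peak lost, and lists of equal length gave 6 gained and 4 lost for C/EBPβ, 5 and 4 for PPARγ, and 3 and 3 for EGR2.
Leaving out 1 library gave these ranges of regions lower by the fold rule in H3K27ac: 5 to 13 in C57, 1 to 20 in BALB, 1 to 18 in NOD, 2 to 7 in PWK, 0 to 1 in SPRET, 9 to 18 at 6 h and 5 to 16 at 24 h. In Pol II they were 2 to 8 in C57, 0 to 6 in BALB, 2 to 7 in NOD, 0 to 2 in PWK, 0 to 1 in SPRET and 1 to 10 in the time course at 24 h. In H3K4me2 they were 0 to 11 in C57, 0 to 14 in BALB, 0 to 1 in PWK and 0 to 1 in SPRET, and in H3K4me3 0 to 1 in BALB, NOD and PWK. For EGR2 they were 1 to 12 at 1 h, 0 to 4 at 6 h and 0 to 1 at 24 h. By limma they were 0 to 34, 0 to 13 and 0 to 6 for H3K27ac and 0 to 4, 0 to 7 and 0 to 1 for Pol II at 1, 6 and 24 h, 0 to 10 for BALB H3K27ac, 0 to 25, 0 to 31, 0 to 10 and 0 to 1 for H3K4me2 in C57, BALB, NOD and SPRET, 0 to 1, 0 to 2 and 0 to 0 for Pol II in C57, PWK and SPRET, and 0 to 5 for EGR2 at 1 h.
The log2 difference of H3K27ac at the Ccr1 start at 1 h, -0.11, was 0.68 with median-ratio scaling, 0.58 with edgeR, 0.18 without basal replicate 2, and -1.69 to 1.46 over single libraries left out (1.46 without 1 h replicate 2). Its 24 h value in PWK ran from -0.25 without 24 h replicate 1 to 0.72, and Pol II there in SPRET from -0.33 without basal replicate 1, with -0.15 without 24 h replicate 2, to 0.32. Interactions at Ccr1 +40.4 kb ran from -0.045 to 0.37 for H3K27ac, -0.30 to 0.44 for H3K4me2, -0.96 to 0.39 for STAT6 and -0.10 to 1.24 for C/EBPβ when 1 library was left out. The cause was not tested. No share of all regions stands beside the counts of this section, except those of the blocked fit. For EGR2 at 1 h without 1 h replicate 2, the median of all sites moved as well, from -0.59 to -1.21. The 29 calls of a single region, of which some regions hold more than 1, reversed in 0 of their alternatives, stayed in 193 and were lost in 157. Low regions rest on few reads, so small differences there were not detectable at this depth.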
